A study of Mus musculus with 15 samples.

Results

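Eosinophils of the CD11c-negative gate and natural helper cells, both sorted from the lungs of papain-treated mice, were compared across all measured genes. The comparison uses 4 of the 15 libraries of the series: 2 of CD11c-negative eosinophils and 2 of natural helper cells, chosen by their sample titles. The single library of 3'UTRKO natural helper cells was left out of every comparison. All mice behind the 4 libraries carry the C57BL6/J background, and no allele is named for them. Papain, a plant cysteine protease used as an airway allergen, was given into the nose at 50 ug per mouse on 3 consecutive days. Eosinophils were gated as SiglecF-positive, Gr1-low cells without autofluorescence and split by CD11c. The gate for natural helper cells required Thy1.2, CD25 and the IL-7 receptor alpha chain and the absence of lineage markers. For reference, 2 libraries each of naive eosinophils and naive natural helper cells, from untreated mice of the same strain, were compared in the same way, and 2 libraries of CD11c-positive papain eosinophils are quoted where a value bears on the gate. The titles of the naive eosinophil libraries name no CD11c gate. Between papain and naive eosinophils, treatment and gate therefore cannot be told apart. Age, sex and the number of mice per library are not given in the sources used here.

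Natural helper cells are innate lymphocytes, now usually counted among group 2 innate lymphoid cells. They carry no antigen receptor of their own, respond to epithelial alarmins such as IL-33, IL-25 and TSLP, and secrete IL-5 and IL-13. IL-5 is the main growth and survival factor of eosinophils, which are granulocytes that store cationic proteins in their granules and release lipid mediators, chemokines and cytokines in allergic lung tissue. The comparison therefore sets a cell type known to make IL-5 beside one known to respond to it, in the same inflamed organ.

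The deposited values are FPKM, that is fragments scaled to transcript length and library size, rounded to whole numbers. Levels of different genes can therefore be set beside each other per length. Differences are eosinophils minus natural helper cells on the log2(FPKM + 1) scale, given with the standard error (SE) of the limma fit and a Benjamini-Hochberg adjusted p over the 14257 genes tested. A gene is called at an adjusted p under 0.05. The log2(FPKM + 1) scale understates the change of genes with low values. Across genes, replicate libraries correlated with a Pearson r of 0.948 in eosinophils and 0.961 in natural helper cells, and the median difference between replicates was 0.222 and 0.138 on the log2 scale. Read depth is unknown, since FPKM keep no counts. Summed FPKM were 374841 to 411312 in eosinophils and 415158 to 452079 in natural helper cells. The labels number the libraries but do not say that they came from separate mice, so the spread between replicates may be technical. The p-values rest on that spread estimated over all 15 libraries and 8 groups of the series, not on the 4 libraries alone. In sorted bulk samples, fewer cells of a type and less RNA per cell cannot be told apart.

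The labelled cell types showed their defining transcripts. Prg2, which encodes the granule major basic protein, was at 273 and 343 FPKM in the eosinophil libraries and listed at 0 in both natural helper cell libraries (limma adjusted p = 0.00225). Ear6, an eosinophil-associated ribonuclease, was at 228 and 162 FPKM against 0 and 3, a log2 difference of 6.59 ± 1.55 (SE; limma adjusted p = 0.0198). The natural helper cell libraries instead held the cytokine Il5 at 2379 and 2350 FPKM, against 25 and 15 in eosinophils, a log2 difference of -6.86 ± 0.57 (SE; limma adjusted p = 0.000118). Gata3, the transcription factor that natural helper cells depend on, was at 201 and 229 FPKM against 2 and 3, a log2 difference of -5.96 ± 0.60 (SE; limma adjusted p = 0.000319). The libraries of the cell types did not overlap for any of these 4 genes.

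Of 10 eosinophil markers tested, 6 were called higher in eosinophils (Prg2, Prg3, Ear6, Siglec5, Il5ra and Ccr3) and none in natural helper cells. Their summed level was 860 and 813 FPKM in eosinophils and 4 and 33 FPKM in natural helper cells. Epx, which encodes eosinophil peroxidase, stood out among the 4 members that were not called. It was at 5 FPKM in the first eosinophil library and at 0 in the other 3. The transcripts of Ear1 and Ear2 are 96.4% identical and those of Ear6 88.1% to 88.4% identical to the other ribonucleases compared, so reads may be split among these genes. Leaving out any single one of the 4 libraries ended the calls of Ear6 (limma adjusted p from 0.0537 to 0.137) and Prg3 (from 0.0626 to 0.166). Of 12 natural helper cell markers, 11 were called higher in natural helper cells. Icos, a costimulatory receptor, was not called at 4 and 11 FPKM against 215 and 238 (limma adjusted p = 0.106). The summed level of these 12 markers was 4878 and 4799 FPKM in natural helper cells and 174 and 184 FPKM in eosinophils, of which the IL-33 receptor gene Il1rl1 made up 105 and 106.

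Some marker genes were part of the sort and their differences are no finding. They stay in the list counts, pairs and figures of this text, where the same limit holds. SiglecF is listed under the symbol Siglec5, at 91 and 102 FPKM in eosinophils against 0 and 1. Since RefSeq gives Siglec5 as an older symbol of more than a single gene, that match is uncertain. Thy1 (5 and 12 FPKM against 250 and 234), Il7r (5 and 10 against 193 and 151) and the CD25 gene Il2ra (4 and 8 against 228 and 213) define the natural helper cell gate. The call of Thy1 was lost without the first eosinophil library (limma adjusted p = 0.0665) or the first natural helper cell library (0.0511). The CD11c gene Itgax was at 109 and 185 FPKM in the gate sorted as CD11c-negative and at 186 and 165 FPKM in the CD11c-positive gate. Itgax was not called different between these gates, with a log2 difference of -0.30 ± 0.78 (SE; limma adjusted p = 0.969).

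Some markers of other cell types also differed between the libraries, and their part in the results below was not tested. Over all genes tested, 7.67% were called higher in eosinophils and 8.93% in natural helper cells. A single call among 9 or 12 markers is near these shares. Only the natural helper cell gate is described here as excluding lineage markers. How far the sort set the differences of such markers was not tested. Of 11 neutrophil markers, 5 were called higher in eosinophils (Retnlg, S100a8, S100a9, Csf3r and Cxcr2). Of these, Retnlg, Csf3r and Cxcr2 held with each library left out in turn. The list summed to 9257 and 6494 FPKM in eosinophils and to 15 and 122 in natural helper cells. The neutrophil granule gene Elane was at 0 in both eosinophil libraries, Mpo at 0 and 1, and Camp at 0 and 2. The granule genes Ltf (84 and 10 FPKM against 0 and 9), Ngp (6 and 7 against 0 and 2) and Mmp8 (2 and 5 against 0 and 1) were above the natural helper cell values and not called (limma adjusted p = 0.281, 0.366 and 0.156). Of 9 B cell markers, 7 were called higher in eosinophils, 3 of them with each library left out in turn, with sums of 103 and 268 FPKM against 6 and 17. Cd79a of that list was at 36 and 87 FPKM in eosinophils. Of 12 epithelial markers, 4 surfactant genes were called higher in eosinophils, none of them with each library left out in turn, with list sums of 6697 and 9130 FPKM against 737 and 2076. Scgb1a1, the secretoglobin of club cells, alone gave 5044 and 8407 FPKM against 681 and 1921. Of 3 red blood cell markers tested, 1 was called higher in eosinophils, and the list summed to 1796 and 921 FPKM against 42 and 67. The called gene was Alas2, at 8 and 3 FPKM against 0 and 0 (limma adjusted p = 0.0362), and it lost its call with any single library left out (0.0543 to 0.238). The globin gene Hba-a1, at 1086 and 539 FPKM against 30 and 46, was not called (limma adjusted p = 0.0689) but was called under 9 alternatives. The monocyte and macrophage list (2 of 12 called higher in eosinophils, 1 in natural helper cells) summed to 972 and 619 FPKM against 169 and 531. The alveolar macrophage list (1 of 9 each way) summed to 508 and 487 FPKM against 171 and 971, with Chi3l3 at 94 and 823 FPKM in the natural helper cell libraries.

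The remaining marker lists had few or no calls. A single call among 8 or 11 markers is near the shares over all genes. None of 8 T cell markers was called, and Cd3g reached 92 and 100 FPKM in natural helper cells against 6 and 28 in eosinophils. None of 8 NK cell, 8 endothelial or 7 fibroblast markers was called. The fibroblast list summed to 359 and 227 FPKM in eosinophils and 325 and 328 in natural helper cells. None of 5 mast cell markers was called, and they summed to 10 and 12 FPKM against 0 in both natural helper cell libraries. Of 11 basophil markers, only the histidine decarboxylase gene Hdc was called, at 319 and 165 FPKM in eosinophils against 9 and 14. The basophil-defining genes Mcpt8, Fcer1a, Ms4a2 and Prss34 were at 0 in all 4 libraries. The dendritic cell list had 2 of 8 markers called higher in eosinophils and 1 in natural helper cells, with sums of 37 and 105 FPKM against 99 and 120.

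Of the 14257 genes tested, 1093 (7.67%) were called higher in eosinophils and 1273 (8.93%) higher in natural helper cells, and the median difference over all genes was 0. At an unadjusted p under 0.05, limma gave 4162 genes. No called gene had overlapping libraries. Absence of overlap also occurred in genes not called, such as Icos, and its share over all genes was not counted. Among calls with a mean of 10 FPKM or more in the higher cell type, 52 of eosinophils and 15 of natural helper cells were listed at 0 in both libraries of the other. Differences of 3 or more on the log2 scale were found for 257 genes higher in eosinophils and 133 higher in natural helper cells. When each of the 4 libraries was left out in turn, 516 of the eosinophil calls (47.2%) and 417 of the natural helper cell calls (32.8%) held each time. The eosinophil count became 580 without the first and 705 without the second eosinophil library, and 551 and 710 without the first and second natural helper cell library. The natural helper cell count became 496, 828, 581 and 473 in the same order. Named genes that held in each of these 4 fits but not in a fit of only the 4 libraries compared included Ccl6, Ccr4, Cd14, Cd79a, Clec4e, Il1a, Il6, Itgax, Slc2a6 and Tyrobp (limma adjusted p from 0.0539 to 0.0857).

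**Figure D1:**
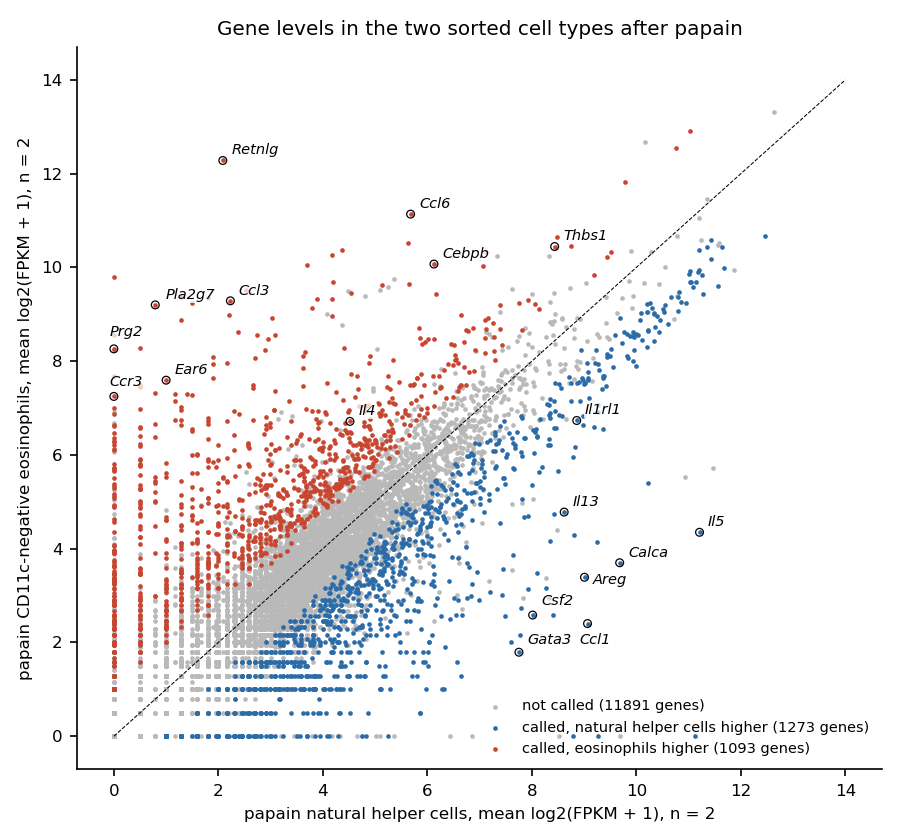
Mean log2(FPKM + 1) of each tested gene in papain natural helper cells (x axis) and papain CD11c-negative eosinophils (y axis), 2 libraries each, with the line of equality. Red points are the 1093 genes called higher in eosinophils, blue points the 1273 called higher in natural helper cells and grey points the rest; Retnlg lies farthest above the line among the labelled genes and Il5 farthest below it.

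Small RNA genes aside, the genes with the largest called differences in favour of eosinophils were receptors, enzymes and secreted factors of myeloid cells. Retnlg, a resistin-like secreted protein that is also a neutrophil marker, was at 7163 and 3449 FPKM in eosinophils and at 1 and 8 in natural helper cells, a log2 difference of 10.19 ± 0.85 (SE; limma adjusted p = 0.000122). Naive eosinophils held it at 13759 and 7600 FPKM. Pla2g7, the hydrolase that inactivates platelet-activating factor, followed with 631 and 546 FPKM against 0 and 2, a difference of 8.41 ± 0.66 (SE; limma adjusted p = 9.45e-05). Cyp4f18, a cytochrome P450 that hydroxylates leukotriene B4, was at 610 and 719 FPKM against 1 and 2, a difference of 8.08 ± 0.48 (SE; limma adjusted p = 2.72e-05). Such genes were picked by the size of the difference among those whose libraries do not overlap, so their separation follows from the choice.

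Itgam, the CD11b integrin chain, was at 314 and 310 FPKM in eosinophils and at 0 and 1 in natural helper cells, a log2 difference of 7.79 ± 0.29 (SE; limma adjusted p = 3.66e-06). The lineage markers excluded from the natural helper cell gate are not listed here, and how far the sort set this difference was not tested. Slc11a1, a metal transporter of phagosomes, was at 632 and 580 FPKM against 1 and 3. The inhibitory receptor gene Cd300lf was at 593 and 705 FPKM against 1 and 5. Rab44, a Rab GTPase gene, was at 516 and 430 FPKM against 1 and 2. Ccr3, the eotaxin receptor, was at 154 and 148 FPKM and listed at 0 in both natural helper cell libraries, as was the inositol phosphatase gene Inpp5j at 120 and 135 FPKM. Ccl3, a chemokine that binds CCR1, was at 758 and 513 FPKM against 1 and 10. Emr1, which encodes the F4/80 antigen of macrophages and eosinophils, was at 222 and 144 FPKM against 0 and 1. Together with Prg2 these make up the 12 largest called eosinophil differences outside small RNA genes, and all 12 were called with each library left out in turn.

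The 12 largest called differences in favour of natural helper cells, small RNA genes again aside, were led by secreted factors. Below Il5 came Ccl1, the ligand of CCR8, at 457 and 625 FPKM against 6 and 3 in eosinophils, a log2 difference of -6.66 ± 0.57 (SE; limma adjusted p = 0.000133). Calca, which encodes calcitonin and the neuropeptide CGRP, was at 860 and 780 FPKM against 12 and 12, a difference of -5.98 ± 0.51 (SE; limma adjusted p = 0.000134). Areg, which encodes the epidermal growth factor family ligand amphiregulin, was at 524 and 503 FPKM against 10 and 9, a difference of -5.62 ± 0.76 (SE; limma adjusted p = 0.00134). Csf2, the GM-CSF gene, was at 242 and 274 FPKM against 5 and 5, a difference of -5.43 ± 0.60 (SE; limma adjusted p = 0.000496).

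Nuclear factors and surface receptors made up the others. Rora, an orphan nuclear receptor required for these innate lymphocytes, was at 200 and 184 FPKM against 3 and 3. Hlf, a leucine zipper transcription factor gene, was at 121 and 81 FPKM against 2 and 1, and Stab2, a scavenger receptor gene, at 72 and 45 against 1 and 0. The chemokine receptor gene Ccr8 was at 341 and 334 FPKM against 3 and 8, Cxcr6 at 256 and 184 against 3 and 4, and the PD-1 gene Pdcd1 at 328 and 309 against 4 and 11. These last 3 calls were the least stable of the 12. Cxcr6 and Pdcd1 lost theirs with any single one of the 4 libraries left out (limma adjusted p from 0.0823 to 0.121 and from 0.0679 to 0.162). Ccr8 lost its call without the first eosinophil library (0.0963) or without the first or second natural helper cell library (0.0733 and 0.0702).

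**Figure D2:**
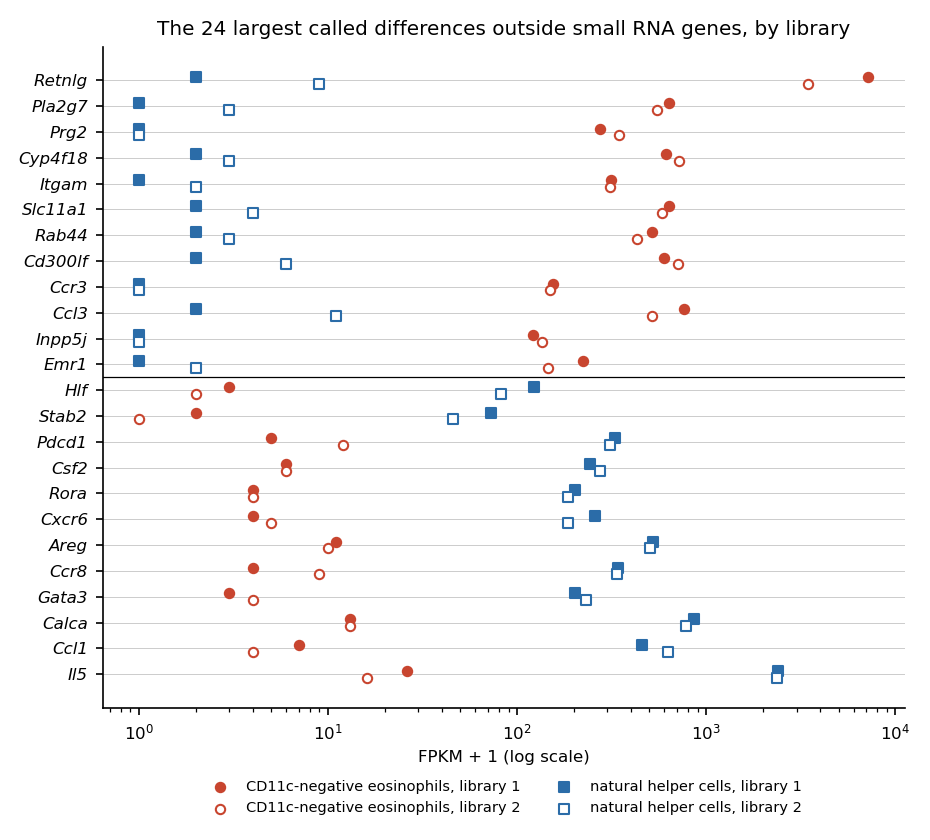
FPKM + 1 on a log axis for the 24 genes with the largest called differences outside small RNA genes, each library as a point: red circles for CD11c-negative eosinophils, blue squares for natural helper cells, filled for library 1 and open for library 2. The genes were picked among those without overlap between the cell types. The eosinophil genes lie at 8 FPKM or below or, for Ccl3, at 10 FPKM in the natural helper cell libraries.

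GATA factors bind DNA at sites built on the letters GATA, and the cell types expressed different members: Gata3 in natural helper cells, and Gata1 in eosinophils at 34 and 36 FPKM against 0 in both natural helper cell libraries. The letters AGATAA or TGATAA were therefore looked for on either strand in RefSeq promoter windows, from 250 bases before to 50 bases after the gene start (GRCm38.p6, another build than that of the files). Among the 12 top genes of natural helper cells, 4 windows held them, and among the 8 top eosinophil genes with a window, 2 did. The matched stretches are shown because these genes mark the extremes of the comparison, with the matched letters in capitals, 5′ to 3′ on the gene's strand.
Ccl1 (chr11:82179826-82179855, minus strand): ccccgggccttcTGATAAaagctcagtaca
Calca (chr7:114636558-114636587, minus strand): aagagatgaaatTTATCTtgatgtcaaaag
Ccr8 (chr9:120091883-120091912, plus strand): atgccccctgcTTATCTctgccccagatct
Csf2 (chr11:54250120-54250149, minus strand): attAGATAAtgaggtggacttgtgagaagt
Ccr3 (chr9:124021929-124021958, plus strand): gtatccatccatAGATAActcaacagagag
Cyp4f18 (chr8:72009840-72009869, minus strand): ctttttggtattTTATCTtcatgaaaccat
These letters are common. They occurred in 13.3% of 9980 windows of tested genes, in 14% of 780 windows of genes called higher in eosinophils and in 13.5% of 905 windows of genes called higher in natural helper cells. The C/EBP pattern TTGCNNAA, searched on both strands without regard to overlap with the GATA letters, was found in 10.5% of tested windows, 15.3% of those higher in eosinophils and 9.06% of those higher in natural helper cells. A match describes letters in a window and is not a bound site.

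Of 59 microRNA genes tested, 3 were called, all higher in eosinophils, and they are named here after their values were seen. Over all genes tested, 7.67% were called in that direction, so microRNA genes were not called more often. The Mir223 row was at 103 and 91 FPKM, Mir23a at 207 and 675 and Mir24-2 at 138 and 301, and all 3 were listed at 0 in both natural helper cell libraries (limma adjusted p = 0.0316, 0.0311 and 0.0491). By the fitted log2 difference, Mir23a and Mir24-2 rank among the 12 largest eosinophil differences when small RNA genes are included. Each call was lost with any single one of the 4 libraries left out (limma adjusted p from 0.104 to 0.183). CD11c-positive eosinophils listed Mir23a at 0 in both libraries. Naive eosinophils held Mir223 at 0 and 27 FPKM, and naive natural helper cells held Mir24-2 at 47 and 0. The libraries were made from polyadenylated RNA, so these rows reflect fragments over a short gene and not mature microRNAs. The mature forms that RefSeq (GRCm38.p6) lists for the 3 genes differ in their seeds, bases 2 to 8, shown in capitals.
miR-223-3p: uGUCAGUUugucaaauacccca
miR-23a-3p: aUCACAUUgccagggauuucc
miR-24-3p: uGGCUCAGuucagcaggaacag

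Gene lists were read by the number of tested members called in each direction, against the 7.67% and 8.93% of all genes, and by the median log2 difference, which was 0 over all genes. Of 625 list genes in the table, 57 belong to more than 1 list. Over the 25 pathway lists, medians ran from 4.86 for paired and inhibitory immunoreceptors to -1.97 for costimulation and checkpoint genes. Cytokines and their receptors lay between these ends, with nearly equal numbers of calls in each direction.

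**Figure D3:**
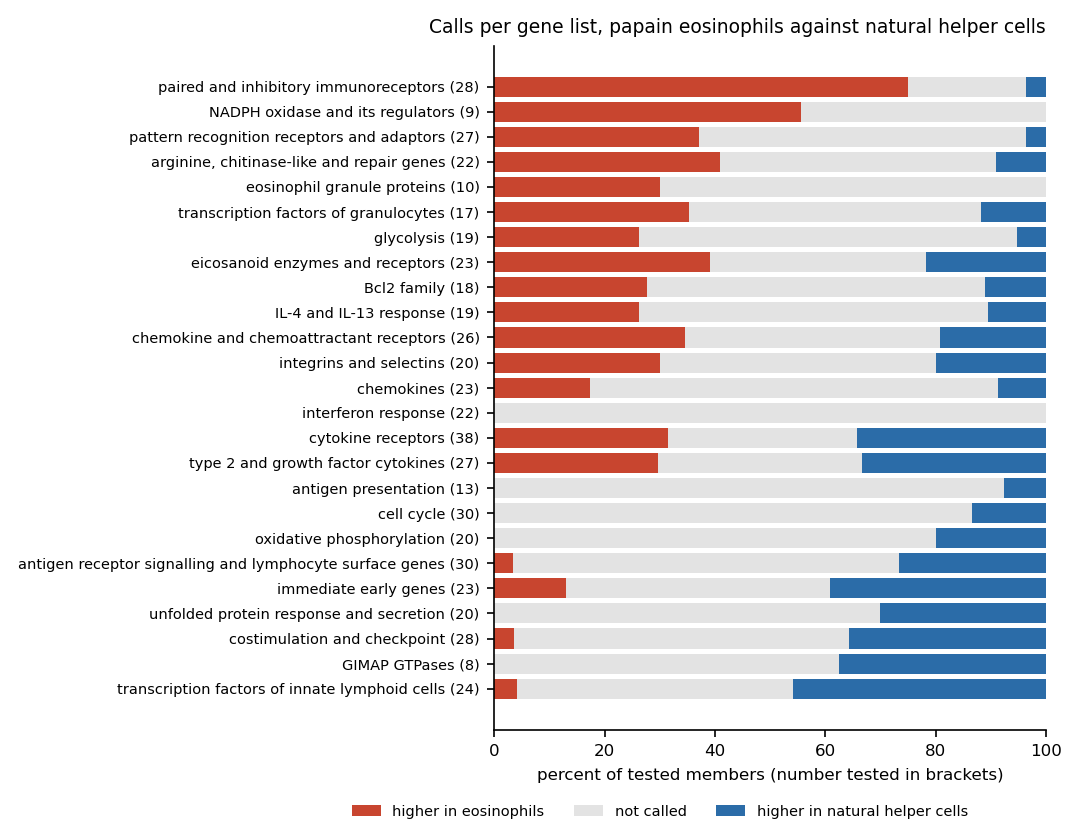
Percent of the tested members of each pathway list that were called higher in eosinophils (red, left), not called (grey) or called higher in natural helper cells (blue, right), with the number of members tested in brackets. Immunoreceptors and NADPH oxidase genes have the largest red shares and transcription factors of innate lymphoid cells the largest blue share.

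Cytokine genes were called in both directions, and 10 were not called. Of 27 type 2 and growth factor cytokines tested, 8 were called higher in eosinophils and 9 in natural helper cells, with a median log2 difference of -0.45. Il13, which acts on epithelium and smooth muscle, was at 407 and 377 FPKM in natural helper cells against 26 and 27 in eosinophils, a log2 difference of -3.84 ± 0.55 (SE; limma adjusted p = 0.00177). Il4, the related cytokine that drives IgE switching, went the other way. It was at 95 and 114 FPKM in eosinophils against 20 and 24 in natural helper cells, a difference of 2.20 ± 0.40 (SE; limma adjusted p = 0.00607), and its call was lost without the first natural helper cell library (0.0526). The growth factors Il2 (23 and 15 FPKM) and Il3 (30 and 25 FPKM) were detected in natural helper cells and listed at 0 in both eosinophil libraries. Il9 was at 2 and 4 FPKM in natural helper cells and 0 in eosinophils, and its call was lost with any single library left out (limma adjusted p from 0.0714 to 0.2).

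The 8 cytokines called higher in eosinophils were Il1rn, Il1a, Il1b, Il6, Osm, Vegfa, Il16 and Il4. Il1rn, the IL-1 receptor antagonist, was at 780 and 681 FPKM against 2 and 10, a log2 difference of 6.99 ± 0.76 (SE; limma adjusted p = 0.000472). Il1b was at 674 and 472 FPKM against 5 and 31 and lost its call without the first eosinophil library (limma adjusted p = 0.0798) or the first natural helper cell library (0.0911). Il1a was at 163 and 152 FPKM against 0 and 6. Il6 was at 222 and 156 FPKM against 32 and 58, a difference of 2.08 ± 0.31 (SE; limma adjusted p = 0.00205). Oncostatin M (Osm, 167 and 120 FPKM against 6 and 14) and the vascular growth factor Vegfa (123 and 110 against 13 and 19) were also called. Tnf (47 and 27 FPKM against 16 and 21) and Lif (35 and 23 against 33 and 61) were not called, with limma adjusted p of 0.212 and 0.249.

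Of 38 cytokine receptor genes, 12 were called higher in eosinophils and 13 in natural helper cells, with a median of 0.16. Of the 12, 4 encode chains of the receptors for IL-5, IL-3 and GM-CSF (Il5ra, Csf2ra, Csf2rb and Csf2rb2). Csf2ra, the GM-CSF receptor alpha chain, was at 349 and 407 FPKM against 5 and 11, a log2 difference of 5.48 ± 0.41 (SE; limma adjusted p = 7.61e-05). The common beta chain Csf2rb was at 343 and 265 FPKM against 4 and 10, a difference of 5.35 ± 0.32 (SE; limma adjusted p = 2.67e-05). Its copy Csf2rb2, 88.5% identical in transcript sequence, was at 203 and 166 FPKM against 15 and 17, and reads may be split between them. The IL-5 receptor alpha chain Il5ra was at 9 and 9 FPKM in eosinophils, listed at 0 in both natural helper cell libraries, and called (limma adjusted p = 0.00174). The IL-5-specific chain was thus listed far below the shared beta chain in the same libraries, per length.

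The receptor genes higher in natural helper cells included those for IL-33, IL-25 and cytokines of the common gamma chain, but not that for TSLP. Il1rl1, which binds IL-33, was at 436 and 492 FPKM against 105 and 106 in eosinophils, a log2 difference of -2.12 ± 0.28 (SE; limma adjusted p = 0.00109). Il17rb, a chain of the IL-25 receptor, was at 91 and 65 FPKM against 1 and 1, a difference of -5.28 ± 0.76 (SE; limma adjusted p = 0.00183). Crlf2, the TSLP receptor chain, was at 66 and 75 FPKM in eosinophils against 34 and 33, a difference of 1.05 ± 0.24 (SE; limma adjusted p = 0.0178) that was lost with any single library left out (0.0698 to 0.0974). Il2rg, the common gamma chain, was at 334 and 354 FPKM in natural helper cells against 89 and 99, and Il9r at 38 and 29 against 1 and 1. Il2rb was at 251 and 296 FPKM against 6 and 17 and Ifngr1 at 261 and 263 against 53 and 80. These calls were lost with any single library left out (limma adjusted p from 0.0759 to 0.204 and from 0.0585 to 0.167). Il4ra was not called, at 46 and 43 FPKM in eosinophils against 59 and 71.

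The chemokines called in eosinophils were CC family members of high level. Of 23 chemokines tested, 4 were called higher in eosinophils and 2 in natural helper cells, with a median of 0.63. Ccl6, a CC chemokine of myeloid cells, was at 2590 and 1952 FPKM against 22 and 113, a log2 difference of 5.46 ± 0.82 (SE; limma adjusted p = 0.00239). Ccl9 was at 257 and 288 FPKM against 1 and 6, and Ccl4 at 151 and 79 against 1 and 5. Ccl3 was the other chemokine called in eosinophils. Ccl1 and Xcl1 were the natural helper cell pair. Xcl1, at 12 and 17 FPKM against 0 and 2, lost its call with any single library left out (limma adjusted p from 0.0639 to 0.29). The monocyte attractant Ccl2 was at 291 and 224 FPKM in eosinophils and 299 and 334 in natural helper cells, and Cxcl2 at 1319 and 1116 against 275 and 372. Neither was called (limma adjusted p = 0.894 and 0.0807).

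Among 26 chemoattractant receptor genes, 9 were called higher in eosinophils and 5 in natural helper cells, with a median of 0.18. Besides Ccr3, eosinophils had Ccr1 at 76 and 83 FPKM against 2 and 3, a log2 difference of 4.54 ± 0.54 (SE; limma adjusted p = 0.000674). The complement receptors C5ar1 (67 and 60 FPKM against 1 and 3) and C3ar1 (25 and 21 against 0 and 0) were also called, and so was the neutrophil marker Cxcr2 (28 and 37 against 3 and 6). Natural helper cells had the CCL2 receptor gene Ccr2 at 94 and 93 FPKM against 2 and 2, a difference of -4.98 ± 0.84 (SE; limma adjusted p = 0.00429), and Ccr4 at 30 and 38 against 0 and 3. Cxcr4 was at 256 and 352 FPKM in eosinophils and 145 and 202 in natural helper cells and was not called (limma adjusted p = 0.228).

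Known ligands and receptors were then read as 66 pairs, of which 15 had both genes called. In 5 pairs the ligand was higher in natural helper cells and the receptor in eosinophils: Il5 with Il5ra, Il5 with Csf2rb, Csf2 with Csf2ra, Csf2 with Csf2rb, and Il13 with Il13ra1. The last rests on low values, since Il13ra1 was at 6 and 6 FPKM in eosinophils against 2 and 2, and its call was lost with any single library left out (limma adjusted p from 0.0748 to 0.0923). No pair had the ligand higher in eosinophils and the receptor higher in natural helper cells. Over all genes tested, 7.67% were called higher in eosinophils and 8.93% in natural helper cells. The 5 pairs share Il5, Csf2 and Csf2rb among them, and the pairs were chosen with earlier results of these data known. The split is therefore only a count, and whether it departs from the shares of all genes was not tested. In 4 pairs both genes were higher in eosinophils (Ccl3, Ccl6 and Ccl9 with Ccr1, and Csf1 with Csf1r). In 6 pairs both were higher in natural helper cells, namely Il9 with Il9r, Il2 with Il2ra and with Il2rb, Ccl1 with Ccr8, Tnfsf15 with Tnfrsf25 and Tnfsf11 with Tnfrsf11a. Of these genes, Il2ra is part of the natural helper cell gate, so its difference is no finding. Csf1 (98 and 63 FPKM against 23 and 32) lost its call with any single library left out (limma adjusted p from 0.0727 to 0.267). Tnfsf15, listed at 1 and 1 FPKM against 0 and 0, lies at the lowest level the rounded values can show. Transcript levels of a ligand and its receptor do not show that the protein was made or bound.

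**Figure D4:**
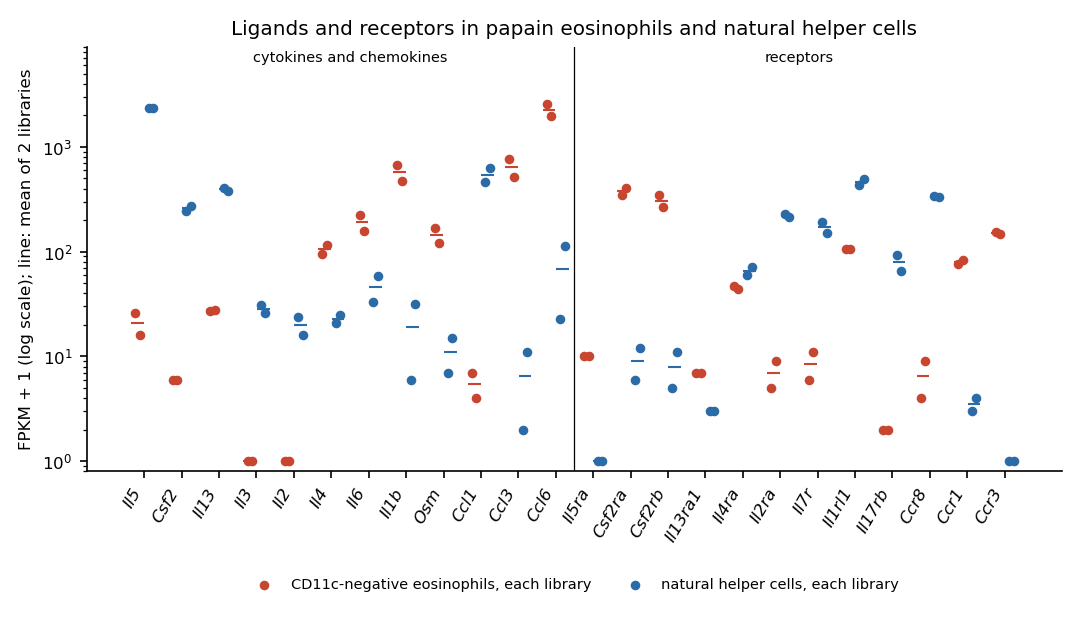
FPKM + 1 on a log axis for 12 cytokines and chemokines (left) and 12 receptors (right), with each library as a point and the mean of 2 libraries as a line; red is CD11c-negative eosinophils and blue is natural helper cells. Il5, Csf2 and Il13 are blue on top, while Il5ra, Csf2ra and Csf2rb are red on top.

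Of 23 eicosanoid genes, 9 were called higher in eosinophils and 5 in natural helper cells, with a median of 0.54. Alox5ap, which presents arachidonic acid to 5-lipoxygenase, was at 828 and 811 FPKM against 12 and 25, a log2 difference of 5.48 ± 0.35 (SE; limma adjusted p = 3.36e-05). Alox15, the 15-lipoxygenase gene, was at 85 and 83 FPKM against 0 and 1, a difference of 5.91 ± 0.37 (SE; limma adjusted p = 3.11e-05), and Alox5 was at 50 and 70 against 20 and 27. Ptafr, the receptor of platelet-activating factor, was at 107 and 90 FPKM against 1 and 2, so that the receptor and the inactivating enzyme Pla2g7 were both higher in eosinophils. The 5 genes higher in natural helper cells all encode receptors: Cysltr1 (17 and 15 FPKM against 0 and 0), Cysltr2 (39 and 37 against 1 and 1), Ptgir (34 and 37 against 2 and 1), Ptger4 and Ltb4r1. Cysltr2 and Ptger4 lost their calls with any single library left out (limma adjusted p from 0.0668 to 0.0822 and from 0.0582 to 0.157).

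Of 9 genes of the NADPH oxidase and its regulators, 5 were called higher in eosinophils and none in natural helper cells, with a median of 1.81. Cytosolic subunit Ncf1 was at 521 and 489 FPKM against 2 and 6, a log2 difference of 6.79 ± 0.41 (SE; limma adjusted p = 2.74e-05). Ncf4 was at 255 and 242 FPKM against 26 and 31. The membrane subunit Cyba was at 576 and 589 FPKM against 151 and 182, a difference of 1.81 ± 0.19 (SE; limma adjusted p = 0.000426). Its partner Cybb, the catalytic subunit, was at 34 and 31 FPKM against 1 and 3. Cybb lost its call without the first eosinophil library (limma adjusted p = 0.0654) or the first natural helper cell library (0.0804). Of 10 eosinophil granule genes, 3 were called higher in eosinophils (Prg2, Prg3 and Ear6), with a median of 1.55. Granule proteins are made mainly while eosinophils mature, so a low transcript level does not speak for the protein content.

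Paired and inhibitory immunoreceptors, which tune myeloid activation through adaptor or phosphatase-binding motifs, gave the highest median of the 25 pathway lists. Of 28 tested, 21 were called higher in eosinophils and 1, Klrg1, in natural helper cells (72 and 58 FPKM against 3 and 3), with a median of 4.86. Of the 21, 20 held with each library left out in turn; Fcgr4 did not (limma adjusted p from 0.105 to 0.262). The adaptor Tyrobp was at 1407 and 1066 FPKM against 7 and 40, a log2 difference of 6.08 ± 0.95 (SE; limma adjusted p = 0.00279), and the Fc receptor gamma chain Fcer1g at 660 and 619 against 10 and 29. The low-affinity IgG receptors Fcgr3 (407 and 382 FPKM against 2 and 8) and Fcgr2b (261 and 226 against 1 and 6) were both higher. Lilrb4 was at 1164 and 934 FPKM in eosinophils and still at 110 and 161 in natural helper cells. Siglecg (117 and 116 FPKM), Cd300lb (95 and 80) and Pira1 (55 and 46) were listed at 0 in both natural helper cell libraries. Cd200r1 was not called, at 28 and 33 FPKM against 44 and 43.

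Of 27 pattern recognition receptors and adaptors, 10 were called higher in eosinophils and 1, Tlr1, in natural helper cells, with a median of 1.44. Clec4d, a C-type lectin receptor for microbial glycolipids, was at 210 and 188 FPKM against 1 and 6, a log2 difference of 5.74 ± 0.78 (SE; limma adjusted p = 0.00136). Its relative Clec4e was at 200 and 124 FPKM against 0 and 4. Cd14, the lipopolysaccharide co-receptor, was at 189 and 163 FPKM against 5 and 24. The nucleic acid sensors Tlr13 (13 and 12 FPKM) and Tlr9 (7 and 6) were listed at 0 in both natural helper cell libraries. Irak2 (73 and 55 FPKM against 19 and 27) and Tlr1 (2 and 2 against 6 and 6) lost their calls with any single library left out (limma adjusted p from 0.0875 to 0.223 and from 0.112 to 0.142).

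Transcription factors separated the lineages in both directions. Of 17 granulocyte factors, 6 were called higher in eosinophils and 2 in natural helper cells, with a median of 0.66, and the 6 held with each library left out in turn. Cebpb was at 1069 and 1080 FPKM against 52 and 91, a log2 difference of 3.94 ± 0.36 (SE; limma adjusted p = 0.000187). Cebpe, needed for terminal granulocyte maturation, was at 60 and 88 FPKM and listed at 0 in both natural helper cell libraries (limma adjusted p = 3.07e-05). The same held for Gata1, required for the eosinophil lineage, and for Nfe2 (44 and 55 FPKM). Trib1, a pseudokinase gene, was at 79 and 88 FPKM against 9 and 13 and Id1 at 60 and 59 against 2 and 3. The table lists the gene of the myeloid factor PU.1 under its older symbol Sfpi1. Looked up after the values were seen, Sfpi1 was at 249 and 249 FPKM against 1 and 9, a difference of 5.81 ± 0.65 (SE; limma adjusted p = 0.000522).

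Of 24 factors of innate lymphoid cells, 11 were called higher in natural helper cells and 1, Notch1, in eosinophils (46 and 49 FPKM against 6 and 8), with a median of -1.79. Besides Gata3 and Rora, Ets1 was at 282 and 278 FPKM against 35 and 67, a log2 difference of -2.51 ± 0.26 (SE; limma adjusted p = 0.000331). Lmo4, placed in the granulocyte list, was also higher in natural helper cells, at 340 and 379 FPKM against 45 and 55, a difference of -2.83 ± 0.24 (SE; limma adjusted p = 0.000128). Of the 11, 5 held with each library left out, among them Gata3, Rora, Ets1 and Gfi1. Pparg, also an alveolar macrophage marker, was at 67 and 53 FPKM against 2 and 3, and its call was lost without the first eosinophil library (limma adjusted p = 0.0628) or the first natural helper cell library (0.0592). Irf4 (65 and 73 FPKM against 6 and 11) and Bcl11b (12 and 14 against 0 and 1) lost theirs without the first eosinophil or either natural helper cell library (limma adjusted p from 0.0591 to 0.138). Id2, the inhibitor needed by all innate lymphoid cells, was not called, at 262 and 366 FPKM in eosinophils and 390 and 396 in natural helper cells.

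Of 30 antigen receptor signalling and lymphocyte surface genes tested, 8 were called higher in natural helper cells and 1, Fyb, in eosinophils, with a median of -1.82. The tetraspanin Cd82 was at 275 and 313 FPKM against 58 and 47, a log2 difference of -2.47 ± 0.20 (SE; limma adjusted p = 0.000105). Skap1, an adaptor gene, was at 47 and 47 FPKM against 1 and 5. The kinase gene Zap70, at 79 and 81 FPKM against 1 and 6, lost its call without the first eosinophil library (limma adjusted p = 0.111) or the first or second natural helper cell library (0.075 and 0.0744). Fyb, at 151 and 124 FPKM in eosinophils against 36 and 43, lost its call with any single library left out (0.0723 to 0.14). The T cell markers Cd3e (4 and 19 FPKM against 25 and 31), Cd3d and Cd3g of this list were not called.

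Among 28 costimulation and checkpoint genes, 10 were called higher in natural helper cells and 1, Cd80, in eosinophils, with a median of -1.97. The TNF receptor family gene Tnfrsf18 was at 323 and 324 FPKM against 10 and 28, a log2 difference of -4.18 ± 0.42 (SE; limma adjusted p = 0.000319), and Tnfrsf9 at 119 and 96 against 13 and 11. Tnfsf4, the OX40 ligand, was at 81 and 76 FPKM against 1 and 1, a difference of -5.31 ± 0.62 (SE; limma adjusted p = 0.000607). In naive natural helper cells Tnfsf4 was at 6 and 8 FPKM. Cd80, a ligand of CD28 and CTLA-4, was at 115 and 98 FPKM in eosinophils against 1 and 2, a difference of 5.45 ± 0.92 (SE; limma adjusted p = 0.00429). Its relative Cd86 was at 9 and 21 FPKM against 1 and 3 and not called (limma adjusted p = 0.0561). The RANK ligand gene Tnfsf11 (60 and 67 FPKM against 1 and 3) lost its call without the first eosinophil library (limma adjusted p = 0.0845) or the first or second natural helper cell library (0.0577 and 0.0651).

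Genes of the GIMAP family of lymphocyte GTPases had 3 of 8 members called higher in natural helper cells (Gimap1, Gimap5 and Gimap8) and none in eosinophils, with a median of -1.13. All 3 calls were lost without the first eosinophil or either natural helper cell library (limma adjusted p from 0.0501 to 0.189). Among 13 antigen presentation genes, H2-K1 alone was called. It was at 966 and 1237 FPKM in natural helper cells against 478 and 566, and its call was lost without the first eosinophil library (limma adjusted p = 0.0725) or the second natural helper cell library (0.0757). The class II invariant chain gene Cd74 was not called, at 304 and 928 FPKM in eosinophils against 147 and 189 in natural helper cells, a log2 difference of 1.67 (limma adjusted p = 0.149). The summed B cell markers, 103 and 268 FPKM in eosinophils, were also higher by value in the second eosinophil library.

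Of 20 integrin and selectin genes, 6 were called higher in eosinophils and 4 in natural helper cells, with a median of 0.20. Itgb2, the beta chain shared by CD11b and CD11c, was at 282 and 280 FPKM against 78 and 106, a log2 difference of 1.62 ± 0.27 (SE; limma adjusted p = 0.00411). The metalloprotease gene Adam8 was at 733 and 872 FPKM against 48 and 50, a difference of 4.0 ± 0.19 (SE; limma adjusted p = 8.90e-06). Itgb7, the beta chain of mucosal homing integrins, was at 180 and 176 FPKM in natural helper cells against 42 and 39, a difference of -2.11 ± 0.28 (SE; limma adjusted p = 0.00117). Itgav, at 105 and 107 FPKM against 17 and 14, lost its call with any single library left out (limma adjusted p from 0.0553 to 0.0651).

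Genes of alternative activation and tissue repair did not all go one way. Of 22 tested, 9 were called higher in eosinophils and 2, Areg and Arg1, in natural helper cells, with a median of 1.38. The arginase genes were opposite: Arg1 was at 297 and 319 FPKM in natural helper cells against 8 and 8, and Arg2 at 27 and 15 in eosinophils against 1 and 2. Arg1 lost its call with any single library left out (limma adjusted p from 0.0511 to 0.0634), and Arg2 without the first eosinophil or first natural helper cell library (0.058 and 0.0533). Plaur, the urokinase receptor, was at 270 and 246 FPKM against 33 and 47, and Mmp9, a gelatinase, at 39 and 36 against 0 and 1. The matrix protein Thbs1 was at 1608 and 1205 FPKM against 388 and 307 and lost its call with any single library left out (limma adjusted p from 0.0965 to 0.2). Chi3l3, at 348 and 248 FPKM against 94 and 823, and Retnla, at 853 and 1725 against 98 and 261, were not called.

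Of 19 IL-4 and IL-13 response genes, 5 were called higher in eosinophils and 2 in natural helper cells, with a median of 0.21. Tgm2, a transglutaminase, was at 655 and 619 FPKM against 9 and 21, a log2 difference of 5.43 ± 0.42 (SE; limma adjusted p = 9.38e-05), and with Alox15 it held with each library left out. Stat6, the factor that IL-4 and IL-13 activate, was at 84 and 76 FPKM against 45 and 45, a difference of 0.81 ± 0.15 (SE; limma adjusted p = 0.00674), and lost its call without the first eosinophil library (0.0583). None of 22 interferon response genes was called in either direction, with a median of 0.29.

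Of 23 immediate early genes tested, 9 were called higher in natural helper cells and 3 in eosinophils, with a median of -0.79. The orphan nuclear receptor Nr4a1 was at 467 and 536 FPKM against 110 and 88, a log2 difference of -2.33 ± 0.21 (SE; limma adjusted p = 0.00017), and Nr4a2 at 105 and 126 against 9 and 8. Fosl2 was at 236 and 313 FPKM against 89 and 78, a difference of -1.69 ± 0.16 (SE; limma adjusted p = 0.000267). Junb, at 539 and 642 FPKM against 253 and 245, lost its call with any single library left out (limma adjusted p from 0.0973 to 0.165) and with median-ratio scaling (0.0927). The eosinophil genes were the negative regulators Zfp36 (349 and 360 FPKM against 58 and 81) and Dusp1 (271 and 247 against 74 and 113), and Ier3. Dusp1 and Ier3 lost their calls with any single library left out (limma adjusted p from 0.0769 to 0.235 and from 0.0512 to 0.227). Zfp36 lost its call without the first or second eosinophil library (0.0614 and 0.0531) or the first natural helper cell library (0.0804).

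Of 20 unfolded protein response genes, 6 were called higher in natural helper cells and none in eosinophils, with a median of -0.94. Ern1, the endoplasmic reticulum stress sensor IRE1, was at 108 and 118 FPKM against 7 and 7, a log2 difference of -3.83 ± 0.34 (SE; limma adjusted p = 0.00017), and alone of the 6 held with each library left out. The chaperone gene Hspa5 was at 297 and 470 FPKM against 166 and 175, and its call was lost without either eosinophil library (limma adjusted p = 0.0966 and 0.0638), without the second natural helper cell library (0.116) and with median-ratio scaling (0.0539).

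Of 20 oxidative phosphorylation genes, 4 were called higher in natural helper cells and none in eosinophils, with a median of -0.61. The ATP synthase gene Atp5b, at 289 and 338 FPKM against 121 and 152, lost its call without the first eosinophil or either natural helper cell library (limma adjusted p from 0.0705 to 0.138), and none of the 4 held with each library left out. Of 30 cell cycle genes, 4 were called higher in natural helper cells, all at low levels, with a median of -1.63. Mki67, a proliferation marker, was at 23 and 17 FPKM against 4 and 7, and lost its call with any single library left out (limma adjusted p from 0.0678 to 0.241). Of 19 glycolysis genes, 5 were called higher in eosinophils and 1 in natural helper cells, with a median of 0.06. The lactate genes were opposite: the lactate dehydrogenase gene Ldha was at 489 and 544 FPKM in natural helper cells against 173 and 194, a log2 difference of -1.49 ± 0.26 (SE; limma adjusted p = 0.00527). The lactate exporter Slc16a3 was at 120 and 85 FPKM in eosinophils against 14 and 14, a difference of 2.77 ± 0.38 (SE; limma adjusted p = 0.00154).

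Of 18 Bcl2 family members, 5 were called higher in eosinophils and 2 in natural helper cells, with a median of 0.68. Mcl1, an anti-apoptotic member that granulocytes depend on, was at 340 and 314 FPKM against 69 and 108, a log2 difference of 1.91 ± 0.25 (SE; limma adjusted p = 0.00109). Bcl2 itself was at 25 and 29 FPKM in natural helper cells against 1 and 2. The pro-apoptotic Pmaip1 was at 72 and 68 FPKM in eosinophils against 13 and 16. Bcl2a1b, at 510 and 338 FPKM against 104 and 129, and Bcl2a1a are copies 98.2% identical in transcript sequence, so reads may be split between them. Bcl2a1b lost its call without the first eosinophil library (limma adjusted p = 0.115) or the first or second natural helper cell library (0.099 and 0.0559).

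Most genes called after papain were also called without it. Between naive eosinophils and naive natural helper cells, 1659 genes (11.6%) were called higher in eosinophils and 2348 (16.5%) in natural helper cells. The papain and naive comparisons share no library but share the estimate of spread. Called in both and in the same direction were 896 eosinophil genes, 82.0% of the papain and 54.0% of the naive calls. In natural helper cells 962 genes were shared, 75.6% of the papain and 41.0% of the naive calls. Opposite calls were found for 6 genes higher in eosinophils after papain (Ankrd24, C1ra, Gas6, Gpc3, Ldb2 and Snord12) and for 7 higher in natural helper cells after papain (Dennd5a, Gm2a, Prkd3, Rab11fip1, Slc15a3, Spn and Tmem123).

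The naive libraries put the leading genes in context. Il5 was at 501 and 2283 FPKM in naive natural helper cells and 0 in both naive eosinophil libraries, so that the naive replicates differed more than the papain ones. Its papain difference was not called apart from its naive difference (limma adjusted p = 0.129). Prg2 spanned 86 and 1519 FPKM in naive eosinophils, and Epx was at 0 and 72. Naive natural helper cells also held Ccl1 at 1100 and 1408 FPKM, Calca at 450 and 1438, Csf2 at 466 and 750 and Arg1 at 133 and 90. In naive eosinophils Il4 was at 126 and 110 FPKM and Ccr3 at 192 and 229, close to the papain levels.

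The papain difference lay above the naive difference for 85 genes (0.596%) and below it for 87 (0.61%) by limma, 1.21% of genes in all, with 1587 genes at an unadjusted p under 0.05. These counts depend on single libraries. They were 11 and 15 without the first and 40 and 29 without the second papain eosinophil library, and 8 and 4, and 10 and 5, without the first and second papain natural helper cell library. They were 7 and 6, and 15 and 8, without the first and second naive eosinophil library. Without the second naive natural helper cell library the count below was 57, and without the first the count above was 41.

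Small RNA genes aside, the 5 largest values above were Clec3b, Dcn, Sparc, Ccl7 and Ly6d. Dcn, a proteoglycan of fibroblasts, was at 137 and 99 FPKM in papain eosinophils but 1 and 1 in naive eosinophils, while natural helper cells held 200 and 170 after papain and 232 and 97 without. Its papain difference exceeded its naive difference by 5.58 on the log2 scale (limma adjusted p = 0.017). Clec3b and the matrix gene Sparc had the same shape, with 49 and 42 and 141 and 80 FPKM in papain eosinophils against 0 and 1 and 1 and 2 in naive ones. The chemokine gene Ccl7 was at 126 and 129 FPKM in papain eosinophils and 1 and 2 in naive eosinophils. Summed fibroblast markers, of which Dcn is one, moved in the same way, at 1 and 3 FPKM in the naive eosinophils and 359 and 227 in the papain eosinophils; their part in these values was not tested. Ly6d was at 18 and 25 FPKM in papain eosinophils and 0 and 1 in papain natural helper cells, against 16 and 19 in naive natural helper cells.

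Below, again without small RNA genes, the 5 largest were Il1r2, Ttc39c, Adap1, Slc2a6 and Zeb2. Il1r2, the decoy receptor of IL-1, was at 100 and 94 FPKM in papain eosinophils and 66 and 68 in papain natural helper cells, against 248 and 77 and 6 and 2 in the naive cells, a value of -4.40 (limma adjusted p = 0.032). Ttc39c was at 85 and 84 FPKM in papain natural helper cells and 6 and 15 in naive ones. The hexose transporter gene Slc2a6 was at 27 and 17 FPKM in papain eosinophils and 122 and 88 in naive eosinophils, against 6 and 7 and 2 and 2 in natural helper cells, a value of -3.54 (limma adjusted p = 0.0091). Zeb2, a zinc finger repressor gene, was at 34 and 17 FPKM in papain eosinophils and 78 and 67 in naive ones. The values of Ttc39c and Zeb2, -4.18 and -3.39, also rest on the other cell type, whose FPKM are not given here. None of the 10 genes held its call with each of the 8 libraries left out in turn. Slc2a6 held it in 5 of 8 and Ly6d in none, and without the first naive eosinophil library limma adjusted p lay between 0.0555 and 0.129 for all 10.

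**Figure D5:**
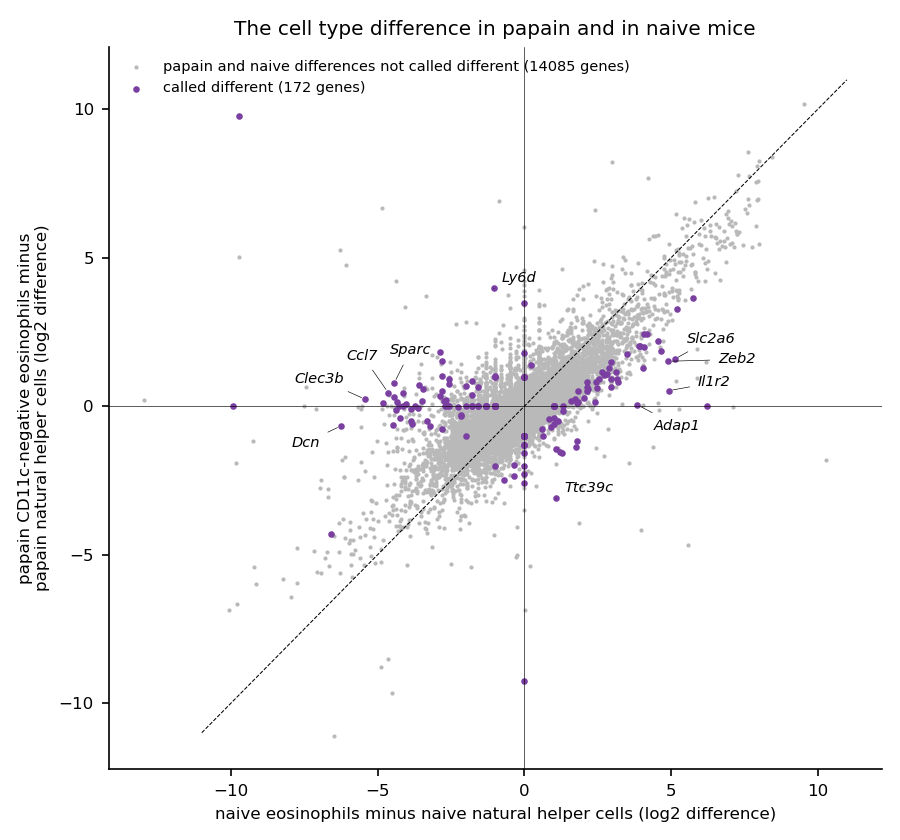
Each tested gene by its log2 difference of eosinophils minus natural helper cells in naive mice (x axis) and after papain (y axis), with the line of equality. Purple points are the 172 genes whose papain and naive differences were called different, grey points the rest; Clec3b, Dcn, Sparc and Ccl7 lie left of the line near 0 on the y axis.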

How the data were processed

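Polyadenylated RNA of sorted cells was sequenced, per the labels' protocols. The submitters' processing notes name TopHat 1.4.0, Cufflinks 1.3.0 and mm9. The authors deposited a score per gene and library, read from the values and the tool as FPKM rounded to whole numbers. The annotation and the rounding are not given in the sources used here. All columns were mapped to samples. Commas grouping digits were stripped in 1008 cells, 3 cells next to 0 were set to 0, and 25 rows with symbols turned into dates were never named.

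Genes reaching 1 FPKM in 2 libraries or more (14257 of 21110 rows) were fitted as log2(FPKM + 1) in limma 3.58.1 (R 4.3.3), with no further scaling. All 15 libraries and 8 groups entered a single model (7 residual and 1.87 prior degrees of freedom, eBayes with trend, two-sided). The replicate number was not used as a block.

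Members, gene lists, pairs and tests were chosen with earlier results of these data known. The text names the 12 largest called differences in each direction whose libraries do not overlap and whose higher mean reaches 10 FPKM, fixed marker and cytokine genes, up to 4 members per list, paired ligands and receptors of 10 FPKM or more, and 5 genes in each direction for the difference between papain and naive. Members named beyond these were chosen after their values were seen. Unnamed gene models and small RNA genes were passed over, except 3 microRNA genes. The 15 marker and 25 pathway lists were only counted. Some list symbols had no row in the table. Sequences come from RefSeq (GRCm38.p6), and identity between copies from local alignment of GENCODE transcripts.

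In a simulation of 200 changed genes among 14124, the papain comparison recovered 20%, 52%, 84% and 90% at log2 changes of 1, 2, 3 and 4. The changed genes were drawn from those averaging over 5 FPKM on the log2(FPKM + 1) scale, and all others had no difference. In the real comparison 16.6% of genes were called, so these shares may not carry over to it. False calls were 35 of 158, a larger share than the 0.05 threshold of adjusted p. Among genes whose mean reached 5 FPKM they were 5 of 128. Of the real calls, 938 and 978 had such a mean. Some list members are counted but not reported by name here.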

Additional observations from a re-analysis of the deposited data

Results flagged for a closer look

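For 10 genes the difference between eosinophils and natural helper cells was flagged as different in the papain and naive libraries. They were called by a limma test of the papain difference minus the naive difference. Their calls depended on single libraries, as described above. The naive eosinophil titles name no CD11c gate, so treatment and gate cannot be told apart here. The values above 0 were 5.65 for Clec3b, 5.58 for Dcn, 5.22 for Sparc, 5.09 for Ccl7 and 5.02 for Ly6d on the log2(FPKM + 1) scale. Below 0 were Il1r2 at -4.40, Ttc39c at -4.18, Adap1 at -3.80, Slc2a6 at -3.54 and Zeb2 at -3.39. Adap1, at 15 and 12 FPKM in naive eosinophils, was listed at 0 in both naive natural helper cell libraries, against 5 and 9 and 7 and 6 FPKM after papain. Ly6d stood apart among the values above 0, because papain natural helper cells held 0 and 1 FPKM where naive ones held 16 and 19. These 10 genes were picked as the extremes of the 172 called once small RNA genes were passed over, and groups of 2 libraries were too small for a check of single outlying samples.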

How the results depend on the processing

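No named gene that was called changed sign. Signs of named genes not called were not checked. Of 151 named genes called in the papain comparison, 83 were called under every alternative run and 95 with each library left out; of 72 not called, 47 stayed so. The papain counts (1093 higher in eosinophils, 1273 in natural helper cells) became 2117 and 3043 with array weights, the second became 2030 with only the 4 libraries in the fit, and they ranged from 551 to 710 and from 473 to 828 with 1 library left out. The naive count in natural helper cells (2348) ranged from 1215 to 1694 with a library left out, and that in eosinophils (1659) from 1115 to 1397. For the papain difference minus the naive difference (85 above, 87 below), both counts moved with a filter at 5 FPKM (53 and 42), median-ratio scaling (50 and 31), quantile normalization (44 and 32), no trend (33 and 20), array weights (387 and 363), only the groups compared (505 and 314) and no papain basophils (193 and 186). With a pseudocount of 5 the count above was 42, and with small RNA genes left out the count below was 32. Leave-one-out counts ranged from 7 to 95 above and 4 to 81 below. The cause was not tested. Quantile normalization also shifted the median of this difference from 0.05 to -0.06.

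The labels give no meaning to replicate numbers, and same-numbered libraries of the papain groups deviated with a correlation of -0.124. With the replicate number as a block, the papain counts were 1022 and 1175, the naive counts 1587 and 2179, and the counts of the difference 49 and 56. Crossed pairing, chosen after seeing the data, gave 1058 and 1199. Fits without 1 library assume that the lone sample varies like the other groups. Depth is unknown, so no detection limit is given for genes listed at 0.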

Other observations

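Ribosomal protein genes, a family looked up after the values were seen, were higher in natural helper cells as a group. Of 80 tested, 74 were called higher there and none in eosinophils, with a median log2 difference of -1.41, against 8.93% of all genes called in that direction. Rpl32 was at 623 and 963 FPKM in eosinophils and 2951 and 3134 in natural helper cells, and Rpl3 at 91 and 196 against 563 and 664. By value, 79 of the 80 were lower in eosinophils under every scaling run, with 60 called under median-ratio size factors and 66 after quantile normalization. The calls numbered 47 with only the 4 libraries in the fit. They numbered 44 and 70 without the first and second eosinophil library, and 54 and 42 without the first and second natural helper cell library. The share of FPKM in small RNA genes was 8.30% and 12.6% in the eosinophil libraries and 13.7% and 11.02% in the natural helper cell libraries. With small RNA genes left out and totals made equal, 76 of the 80 were called higher in natural helper cells and 1 in eosinophils, with a median of -1.30.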
